A study of Mus musculus with 14 samples.

Results

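The PARP family genes described here are 10 ADP-ribosyltransferase genes, Parp1, Parp2, Parp3, Parp4, Parp8, Parp9, Parp10, Parp12, Parp14 and Parp16, found by symbol among the 56414 gene rows of a table of normalized counts from 14 mouse mammary tumors. Each gene had 1 row, and all 10 rows passed the filter on low values in every comparison, which asked for a mean of at least 10 in a group. The only row for Parp10 also carried Plec, the gene of the cytoskeletal linker plectin, so the reads of both genes cannot be told apart, and it is called the joint Plec and Parp10 row throughout. The Parp1 row also held the microRNA gene Mir6904. On mm10, Parp1 (GSMG0001150 in the deposited table) spans chromosome 1 from 180568923 to 180601253, Parp4 (GSMG0050894) chromosome 14 from 56575619 to 56659798 and Parp12 (GSMG0032915) chromosome 6 from 39077903 to 39118353. Parp9 (GSMG0014937, 35938470 to 35972621) and Parp14 (GSMG0015703, 35832878 to 35871500) both lie on chromosome 16, and the joint row (GSMG0014157) covers 76170974 to 76243441 on chromosome 15.

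All tumors grew in C57Bl/6 mice. The M/D-driven tumors arose in the mammary glands of female mice that carried a 50 mg medroxyprogesterone acetate (MPA) pellet, implanted at 6 to 9 weeks of age and releasing for 90 days, and that received 6 gavages of 200 µL of the carcinogen 7,12-dimethylbenz[a]anthracene (DMBA) at 5 mg per mL; 4 were untreated and 4 came from mice given 0.5% nicotinamide (NAM) in the drinking water for 10 days. The AT3 tumors grew from cells of the mouse mammary carcinoma line AT3 injected under the skin, without MPA or DMBA, and comprised 3 untreated tumors and 3 from mice given the same NAM course. Mice of both models entered their groups when tumors reached 0.25 cm2. The AT3 groups come from 1 cell line. The labels number the tumors without naming animals, so the p-values measure the spread between these tumors. NAM-treated M/D tumor 1 belonged to experiment 2, the other 7 M/D tumors to experiment 1 and all AT3 tumors to experiment 3, so that model and experiment cannot be told apart.

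PARP enzymes transfer ADP-ribose from NAD to proteins and release nicotinamide, which is also the compound given to these mice and a long-known inhibitor of the reaction. PARP1, PARP2 and PARP3 are switched on by broken DNA, and PARP1 builds long poly(ADP-ribose) chains that recruit repair proteins. Most other members add single ADP-ribose units, and a group of them, among them PARP9, PARP10, PARP12 and PARP14, is induced by interferon and takes part in antiviral and inflammatory signaling. PARP9 itself works with DTX3L, a ubiquitin ligase whose gene lies head to head with Parp9.

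The sequence upstream of the start is shown for 3 members: Parp1, the sensor with the most reads, Parp4, which differed between the models, and Parp12, whose level followed interferon response genes most closely. The 250 bases before the start are given 5′ to 3′ on the strand of the gene, from RefSeq on GRCm38.p6: chr1:180568641-180568890 on the plus strand, chr14:56575369-56575618 on the plus strand and chr6:39118350-39118599 on the minus strand. Capitals mark copies of the core of an interferon-stimulated response element, GAAA, any 2 bases and GAAA again, which was searched on both strands.
Parp1: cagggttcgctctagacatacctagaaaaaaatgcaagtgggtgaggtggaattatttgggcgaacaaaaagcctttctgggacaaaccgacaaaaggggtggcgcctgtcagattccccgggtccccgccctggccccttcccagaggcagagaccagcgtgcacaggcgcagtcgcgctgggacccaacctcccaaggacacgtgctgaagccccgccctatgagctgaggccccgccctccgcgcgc
Parp4: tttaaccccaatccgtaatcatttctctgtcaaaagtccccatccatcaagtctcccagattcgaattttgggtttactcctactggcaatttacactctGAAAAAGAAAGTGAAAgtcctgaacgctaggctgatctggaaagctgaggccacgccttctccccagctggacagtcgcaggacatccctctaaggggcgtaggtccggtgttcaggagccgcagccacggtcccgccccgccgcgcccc
Parp12: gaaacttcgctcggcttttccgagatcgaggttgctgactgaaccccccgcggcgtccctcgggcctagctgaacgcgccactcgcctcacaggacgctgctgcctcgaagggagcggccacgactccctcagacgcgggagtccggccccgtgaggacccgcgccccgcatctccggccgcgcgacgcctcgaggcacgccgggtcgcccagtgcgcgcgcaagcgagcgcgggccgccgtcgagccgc

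RefSeq promoter entries were at hand for 7 of the 10 members, and Parp9, Parp10 and Parp14 had none. Over 300 bases per gene, which add 50 bases past the start, this core was found among the 7 only before Parp4, where 2 overlapping copies began at -150 and -144. It is present in 3.44% of 32851 promoters of the same length. The STAT motif TTCNNNGAA, which 8.3% of the promoters hold, was found only at Parp16, where it spans the start. The Parp12 window held neither motif, but 41 CpG pairs in 250 bases, against a median of 6 over all promoters, and the Parp1 window held 16. These matches describe letters in a window and no binding was measured.

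Between 40936868 and 84178009 reads per tumor were recovered from the deposited values. The AT3 values were normalized apart from the M/D values, so levels are compared between models only after rescaling. Epithelial markers were detected in both models, and none of 11 was at 0 throughout a group. Their levels differed widely: in untreated AT3 tumors the mean normalized count was 5.3 for Esr1, 15.5 for Pgr and 86.6 for Cldn3, but 22757 for Epcam. NAM-treated M/D tumor 1 stood apart: it had the lowest value of the 8 M/D tumors for 10 of 11 epithelial markers, the highest for 5 of 6 precursor B cell markers and the highest for 5 of 5 B cell markers. Its summed epithelial level was 9047, against at least 276160 in each of the other 7, and its summed B cell level was 190641, against at most 1729. Results for M/D tumors are therefore also given without it. In bulk tumors, fewer cells of a type and less RNA per cell cannot be told apart.

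Levels were compared between members per kilobase of the longest transcript, leaving out the joint row. In untreated M/D tumors Parp9 had the highest mean, 2474 ± 1020 normalized counts per kilobase (SD, n = 4), followed by Parp1 at 2021 ± 650 and Parp12 at 1552 ± 493, which overlap within their spread. A gap followed to Parp8 at 605 ± 167, Parp3 at 526 ± 57.6, Parp2 at 413 ± 69.5, Parp4 at 363 ± 84.6 and Parp14 at 281 ± 126. Parp16, an enzyme of the endoplasmic reticulum membrane, was lowest at 163 ± 55.9. In untreated AT3 tumors the same 3 genes led in another order, with Parp12 at 3008 ± 847 per kilobase, Parp9 at 2378 ± 654 and Parp1 at 1190 ± 295 (n = 3), and Parp4 was lowest at 74.9 ± 35.3. The counts cover constitutive exons only, so these lengths are approximate.

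**Figure D1:**
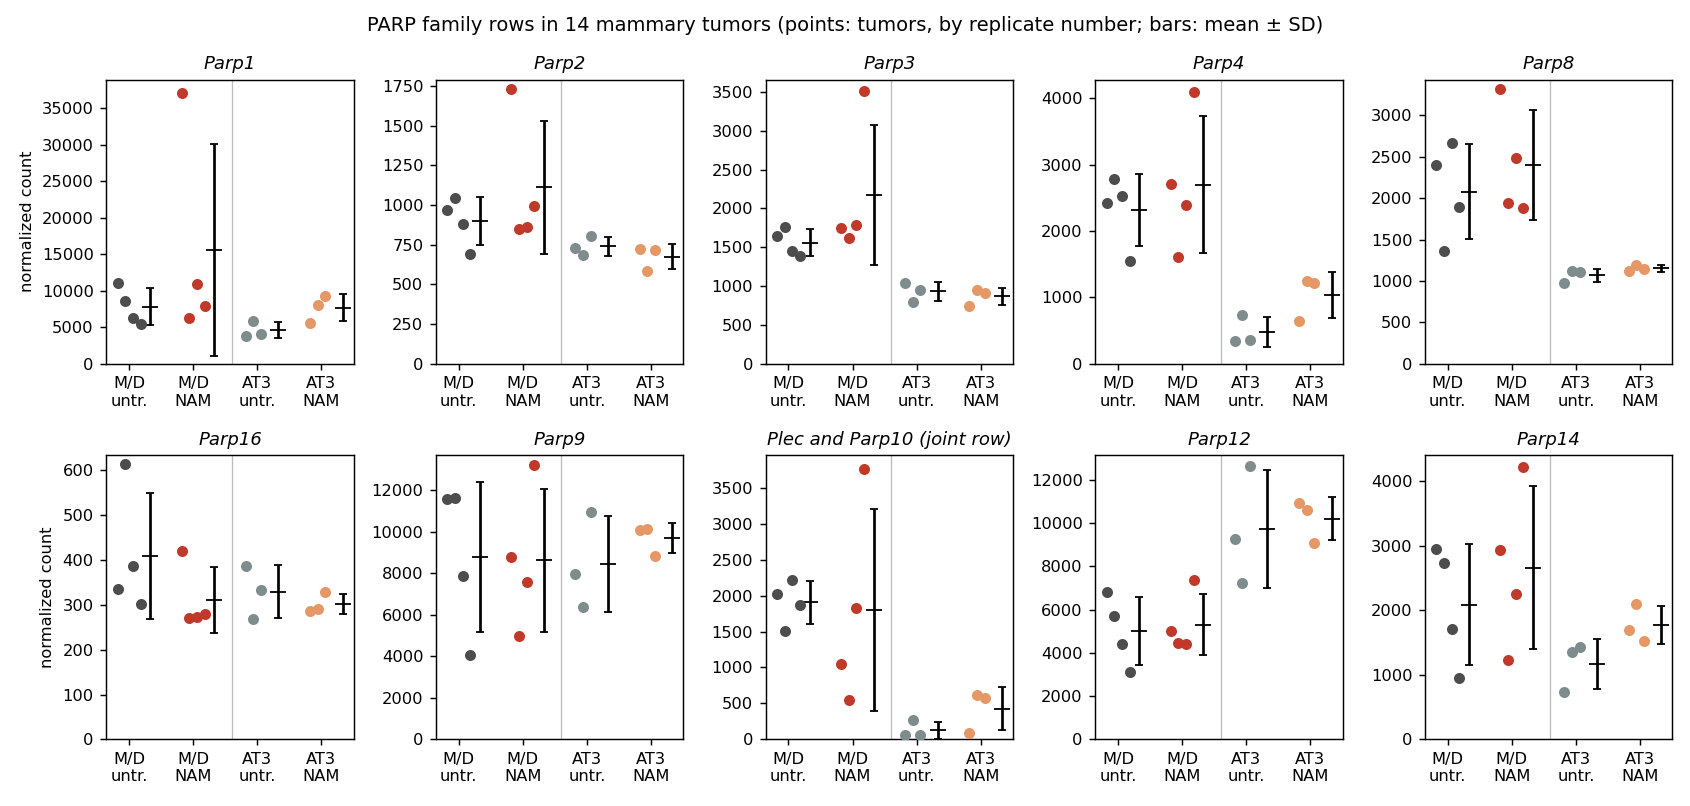
Normalized count of each member in each of 14 tumors, with the mean ± SD of each group beside the points; the y axis is linear, starts at 0 and differs between panels, and M/D and AT3 values were normalized apart. NAM-treated M/D tumor 1 has 37128 normalized counts of Parp1, and Parp4 and the joint row are low in untreated AT3 tumors.

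The first comparison asked how the NAM course changed the members in M/D-driven tumors. None of the 10 passed the study thresholds, a p no greater than 0.05 before adjustment together with a 1.5-fold change or more, against 6.22% of the 21700 genes tested (3.03% higher and 3.19% lower), and for none did the groups fail to overlap, against 4.43% of genes. Their log2 fold changes ran from -0.42 to 0.66 with a median of 0.19, against 0.01 over all genes, and 8 of 10 were above 0. edgeR and DESeq2 on the recovered reads also called 0 of 10. The smallest unadjusted p was 0.173, that of Parp3, and the smallest adjusted p was 0.776 by limma, with 0.00461% of all genes at an adjusted p of 0.05 or less.

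Among the strand break sensors, Parp1 was at 11008, 8633, 6219 and 5444 normalized counts in untreated tumors 1 to 4 and at 37128, 6211, 10957 and 7850 in NAM-treated tumors 1 to 4. A single NAM-treated tumor lay far above all others and the remaining 3 lay inside the untreated range. On the log2 scale NAM-treated tumors were 0.66 higher (standard error, SE, 0.54 and limma adjusted p = 0.801), and 0.11 higher without NAM-treated tumor 1. Parp2, which shares much of the work of Parp1, ran from 692.9 to 1043 in untreated tumors and was at 1732 in NAM-treated tumor 1, with 851.2 to 993.9 in the other 3. Its log2 fold change was 0.26, and 0.02 without that tumor. The high Parp1 and Parp2 values are those of the tumor with high B cell and low epithelial markers, whose part in them was not tested. Parp3 was at 1642, 1755, 1449 and 1386 untreated and at 1752, 1618, 1792 and 3519 with NAM (log2 fold change 0.41, SE 0.27), the fourth NAM-treated tumor standing alone.

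Of the interferon-linked members, Parp9 was at 11577, 11633, 7857 and 4041 in untreated M/D tumors and at 8778, 4959, 7554 and 13204 with NAM. The ranges were nearly the same, and the log2 fold change was 0.01 (95% confidence interval -0.94 to 0.95). Its partner Dtx3l differed by 0.03 on the log2 scale. Parp12 was at 6809, 5697, 4437 and 3120 untreated and at 5032, 4461, 4399 and 7364 with NAM, a log2 fold change of 0.11 (-0.54 to 0.76). Parp14, which also acts on STAT signaling, was at 2953, 2737, 1703 and 946 untreated and at 2940, 1228, 2254 and 4223 with NAM, a log2 fold change of 0.35 (-0.73 to 1.43). The intervals of Parp9 and Parp14 do not exclude changes past the fold threshold in either direction.

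No call was made for the remaining members in M/D tumors. Parp4, the catalytic protein of the vault particle, differed by 0.17 on the log2 scale, Parp8 by 0.22 and Parp16 by -0.37, with adjusted p between 0.803 and 0.919 by limma. The joint Plec and Parp10 row was at 2025, 1509, 2223 and 1863 untreated and spread from 550.4 to 3761 with NAM (log2 fold change -0.42, SE 0.53). Without NAM-treated tumor 1, again 0 of 10 members passed the thresholds by limma. Parp9 was then at -0.032 on the log2 scale, with its sign changed, Parp8 at 0.048, Parp16 at -0.52, Parp14 at 0.26 and the joint row at -0.28. Parp3, Parp4 and Parp12 were at 0.48, 0.14 and 0.12 without it.

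In AT3 tumors the same NAM course went with higher Parp1 and Parp4, the 2 of 10 members past the study thresholds, both upward. Over all 19281 genes tested the share past the thresholds was 23.1%, with 12.2% of genes higher, so the share of members is near the background. After adjustment over all genes neither passed, and 0.00519% of genes did. The members' log2 fold changes ran from -0.13 to 1.65, with a median of 0.17 against -0.05 over all genes.

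Parp1 was at 3813, 5916 and 4095 normalized counts in untreated AT3 tumors and at 5646, 7994 and 9337 with NAM. The groups overlapped by 1 pair, untreated tumor 2 lying just above NAM-treated tumor 1. The NAM-treated tumors were 0.73 higher on the log2 scale (SE 0.27, unadjusted p = 0.0225, adjusted p = 0.171 by limma), a fold of 1.66. Parp4 was at 334.8, 738.1 and 363.0 untreated and at 640.3, 1249 and 1212 with NAM, again with untreated tumor 2 above NAM-treated tumor 1. The difference was 1.14 on the log2 scale (SE 0.38, unadjusted p = 0.0145, adjusted p = 0.167 by limma), a fold of 2.21.

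Both calls were lost without untreated tumor 1, without untreated tumor 3 and without NAM-treated tumor 2, and that of Parp1 also without NAM-treated tumor 3. The values for Parp1 were then 0.61, 0.66, 0.68 and 0.57, and those for Parp4 0.93, 0.99 and 0.97. With all 14 tumors in 1 fit Parp1 kept its 0.73 but not its call (unadjusted p = 0.185 by limma). In this comparison the log2 fold change of all genes rose with the length of their longest transcript (Spearman rho 0.59 across genes). With the dependence on transcript length and GC content taken out tumor by tumor, Parp1 was 0.44 higher (SE 0.17, unadjusted p = 0.0271, adjusted p = 0.182 by limma) and Parp4 0.53 higher (SE 0.22, unadjusted p = 0.0425, adjusted p = 0.21 by limma), and neither kept a fold of 1.5.

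The joint Plec and Parp10 row was at 55.1, 263.0 and 65.9 in untreated AT3 tumors and at 85.1, 618.1 and 579.1 with NAM. NAM-treated tumor 1 lay among the untreated tumors, and the log2 fold change of 1.65 had an interval of -0.20 to 3.51 and fell to 0.67 with the length trend removed. The row passed the thresholds with all 6 tumors by DESeq2 on recovered reads (1.73, unadjusted p = 0.0175, adjusted p = 0.0864), and by limma without NAM-treated tumor 1 (2.59) and without untreated tumor 2 (2.36). Parp14 was at 728.9, 1354 and 1428 untreated and at 1699, 2104 and 1525 with NAM, the 1 member whose groups did not overlap, against 22.6% of genes. With 3 tumors against 3 the smallest p an exact permutation test can give is 0.1, which is the value for Parp14. Its log2 fold change of 0.65 (unadjusted p = 0.0554, adjusted p = 0.213 by limma) fell to 0.01 with the trend removed, and it passed the thresholds by limma after TMM rescaling (0.69, unadjusted p = 0.0444), with no filter on low values (0.65, unadjusted p = 0.0434), without untreated tumor 2 (0.79) and without untreated tumor 3 (0.82).

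Parp9 and Parp12 were not called in AT3 tumors. Parp9 was at 7972, 6384 and 10954 untreated and at 10075, 10123 and 8844 with NAM (log2 fold change 0.23, interval -0.31 to 0.77). Parp12 was at 9250, 7246 and 12661 untreated and at 10944, 10595 and 9066 with NAM (0.10, interval -0.45 to 0.66). For both, every NAM-treated value lay inside the untreated range. Parp2, Parp3, Parp8 and Parp16 differed by -0.13, -0.10, 0.11 and -0.11 on the log2 scale, with intervals inside -0.68 to 0.56.

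Dtx3l, the neighbor of Parp9, rose in AT3 tumors from 1546, 1935 and 2002 untreated to 2603, 5499 and 4551 with NAM, by 1.15 on the log2 scale (SE 0.29, limma adjusted p = 0.166) and by 0.72 after removal of the trend. The annotated Parp9 and Dtx3l loci share 558 bases, and whether counting used the strand is not given in the sources used here. Endothelial markers moved with NAM in the AT3 tumors as well: 4 of 5 were higher at the thresholds, 3 of 5 with the trend removed, and their summed level was 2514 to 3756 untreated and 4067 to 6952 with NAM, with no marker at 0. Markers of other cell types moved too: 3 of 6 macrophage and 2 of 6 fibroblast markers were higher, 1 of 6 in each list with the trend removed, and of 11 epithelial markers 2 were higher and 2 lower (1 and 0 with the trend removed). Their part in the Parp1, Parp4 and Dtx3l values was not tested.

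**Figure D2:**
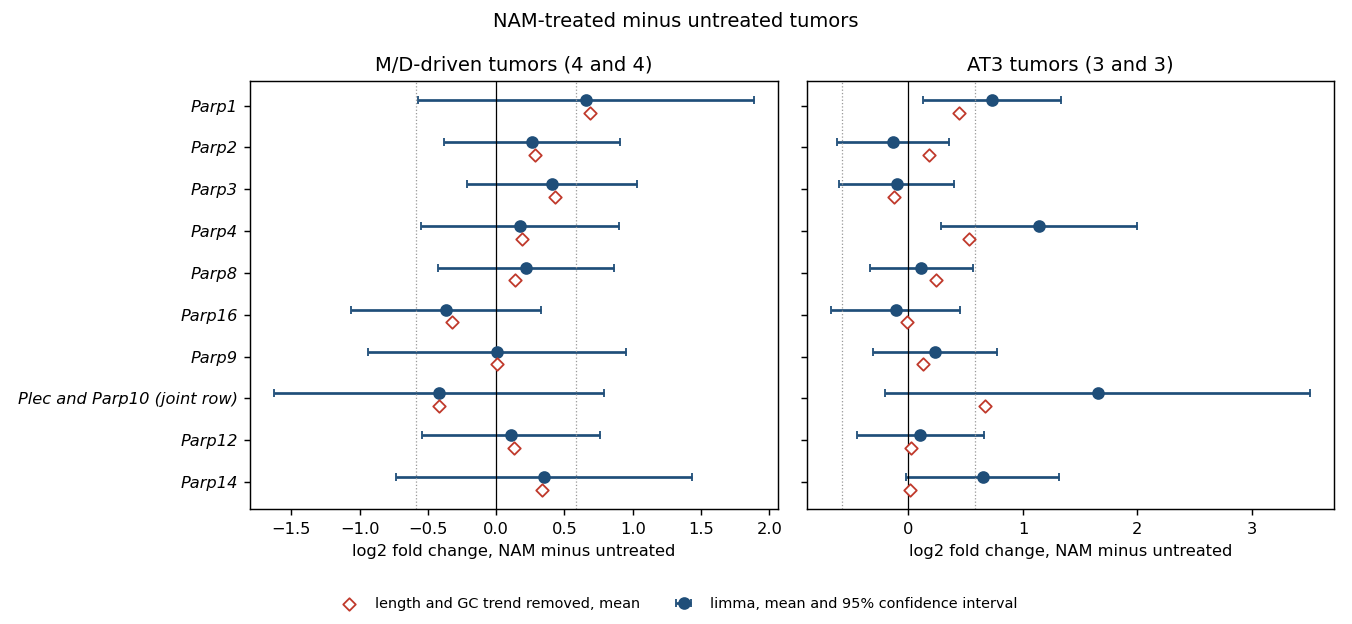
Log2 fold change, NAM-treated minus untreated, of each member in M/D-driven tumors (left) and AT3 tumors (right), with 95% confidence intervals from limma; diamonds give the value with the length and GC trend removed, dotted lines mark a fold of 1.5, and the x axes differ. Parp1 at 0.73 and Parp4 at 1.14 in AT3 tumors are the intervals that exclude 0, and both diamonds lie inside the dotted lines.

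The test of the difference between the NAM effects in the models passed an unadjusted p of 0.05 for 0 of 10 members by limma, against 14.9% of 22710 genes, and the smallest adjusted p was 0.371, with 0 of 10 also by edgeR and by DESeq2. The largest differences were those of the joint row, -2.07 (SE 1.07, unadjusted p = 0.0745 by limma), and of Parp4, -0.97 (SE 0.53, unadjusted p = 0.0896 by limma), both lower in the M/D tumors. Both passed without NAM-treated M/D tumor 4, without untreated AT3 tumor 2 and without NAM-treated AT3 tumor 1, with values of -2.54, -2.77 and -3.00 for the joint row and of -1.33 to -1.20 for Parp4. Parp1 differed by -0.07. Without NAM-treated M/D tumor 1, 0 of 10 members passed by limma, with Parp1 at -0.62 and the joint row at -1.93.

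Untreated M/D and AT3 tumors were compared after rescaling by TMM over these 7 tumors. Here 4 of 10 members passed the thresholds, 3 higher and 1 lower in M/D tumors, against 56.2% of 21725 genes (32.3% higher and 23.9% lower). After adjustment 3 members passed, against 51% of genes. The groups of 4 members, Parp3, Parp4, Parp12 and the joint row, did not overlap, against 53.5% of genes. The median log2 difference was 0.45 for the members and 0.16 for all genes, the latter being 0.48 without the rescaling.

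Parp4 was higher in M/D tumors, with rescaled values of 1481 to 2711 against 393.5 to 854.6 (log2 difference 2.05, SE 0.32, limma adjusted p = 0.00132). With the length trend removed it was 1.30 higher (adjusted p = 0.00297 by limma), and the groups stood apart by more than their spread. The joint Plec and Parp10 row was at 1467 to 2177 in M/D and at 64.7 to 304.4 in AT3 tumors, a log2 difference of 3.95 (SE 0.49, limma adjusted p = 0.000452), and 2.60 with the trend removed. Marker lists also differed between the models: 8 of 11 epithelial markers were higher in M/D tumors, with a median of 3.41 over the list. So were 6 of 7 T cell, 5 of 6 macrophage, 5 of 5 endothelial and 5 of 5 adipocyte markers, against 32.3% of all genes. Of the other lists, 4 of 6 fibroblast and 2 of 5 neutrophil markers were higher. None of 6 natural killer cell, 5 B cell and 4 precursor B cell markers was, and the precursor B cell marker Rag1 was lower. The part of these marker differences in the values of the joint row and of Parp4 was not tested.

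Parp8 was at 1323 to 2607 in M/D and at 1146 to 1375 in AT3 tumors, so the ranges overlapped through M/D tumor 2 alone. Its log2 difference of 0.63 (SE 0.26, limma adjusted p = 0.0679) passed only the unadjusted threshold and lost it without M/D tumor 1 (0.56), without M/D tumor 3 (0.50) and without AT3 tumor 1, 2 or 3 (0.56, 0.65 and 0.69). With all 7 tumors the call was also lost by DESeq2 (0.55, unadjusted p = 0.0544). With the trend removed it was 0.92 (adjusted p = 0.0125 by limma).

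Parp12 was the member lower in M/D tumors, at 2990 to 6736 against 8389 to 15775 in AT3 tumors. No M/D tumor reached the lowest AT3 tumor, and the log2 difference was -1.27 (SE 0.32, limma adjusted p = 0.0107), and -1.38 with the trend removed. Parp9 differed by -0.32 (interval -1.22 to 0.59) and Parp14 by 0.47 (interval -0.51 to 1.45), and Parp14 passed the thresholds without M/D tumor 4 (0.82). Of 29 interferon response genes, 15 were lower and 1 higher in M/D tumors, with a median of -1.55. Among those lower were Mx2, an antiviral GTPase (-3.50), and Ifit2, which encodes an RNA-binding antiviral protein (-2.97), while Dtx3l was the gene that was higher (1.10, limma adjusted p = 0.0515), though not with the trend removed (0.61).

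Parp1, Parp2, Parp3 and Parp16 did not pass. Parp1 was 0.45 higher (interval -0.20 to 1.09) and Parp3 0.45 higher (interval 0.01 to 0.90), while Parp2 and Parp16 differed by -0.03 and -0.02. Without the rescaling Parp1 (0.74) and Parp3 (0.74) passed by limma.

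**Figure D3:**
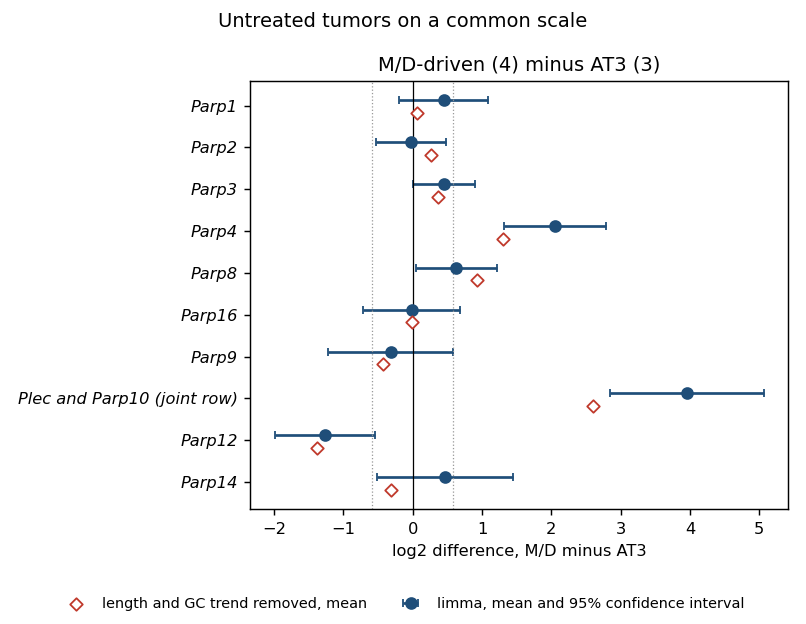
Log2 difference of each member between untreated M/D-driven (n = 4) and AT3 (n = 3) tumors on a common scale, with 95% confidence intervals from limma; diamonds give the value with the length and GC trend removed and dotted lines mark a fold of 1.5. The joint row (3.95) and Parp4 (2.05) lie far to the right and Parp12 (-1.27) to the left of 0.

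Whether members varied with interferon response genes from tumor to tumor was asked after each group's mean had been removed, so that differences between the group means do not enter. For each member the deviation from the group mean was set against that of the mean of 29 interferon response genes over the 14 tumors, with exact permutation of tumors within groups (20736 arrangements, two-sided). Of the 10 members, 4 had a positive relation at an unadjusted p of at most 0.05, against 2.39% of the 18242 genes tested outside the list. They were Parp9, Parp12 and Parp14, already known to be induced by interferon, and Parp3. The share is therefore not a trait of the family as a whole. In the same exact test 0 of the 18242 genes passed after adjustment over all of them, the smallest adjusted p being 0.271, and the smallest unadjusted p the arrangements allow is 4.82e-05.

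Parp12 had Pearson r = 0.965 and Spearman rho = 0.969 (exact permutation p = 0.000193 and 0.000241, adjusted p = 0.271 and 0.55), the highest r of all 18242 genes outside the list. Parp9 ranked 3 with r = 0.958 and rho = 0.965 (exact permutation p = 0.000145 for both, adjusted p = 0.271 and 0.55). Parp14 ranked 31 with r = 0.849 and rho = 0.859 (exact permutation p = 0.00395 and 0.00352, adjusted p = 0.556 and 0.64). Without the 2 tumors farthest from the median of the list, untreated M/D tumor 4 and NAM-treated M/D tumor 4, r was 0.914 for Parp12, 0.870 for Parp9 and 0.636 for Parp14.

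Untreated M/D tumor 4, with a list mean 1.08 below its group on the log2 scale, had the lowest Parp9, Parp12 and Parp14 of its group (4041, 3120 and 946). NAM-treated M/D tumor 4, with a list mean 0.85 above its group, had the highest (13204, 7364 and 4223). T cell and natural killer (NK) cell markers were also at their extremes in these tumors. Their order was that of the list in some groups and differed from it in others. The mean log2 level of 7 T cell markers was 8.34 in untreated M/D tumor 4, the lowest of its group, and 10.44 in NAM-treated M/D tumor 4, the highest of its group, and that of 6 NK cell markers was 5.70 and 8.33, again the lowest and the highest. NAM-treated M/D tumor 1, with a list mean 0.07 above its group, had a mean log2 T cell level of 8.69. This was narrowly the lowest of its group, against 8.82 and 8.75 in tumors 2 and 3. By the summed level its T cell markers were at 8997, above the 3606 and 3375 of those tumors. NAM-treated M/D tumor 3, with a list mean 0.39 below its group, had a higher NK cell level (8.24) than tumor 1 (7.19). In untreated M/D tumors 1 to 4 the NK cell level was 7.69, 6.59, 6.54 and 5.70, in the order of the list. The T cell level there was 9.82, 8.82, 8.89 and 8.34, with tumors 2 and 3 out of that order. In untreated AT3 tumors 1 to 3 the T cell level was 6.35, 5.60 and 7.74, in the same order as the interferon list, and in NAM-treated AT3 tumors it was 7.70, 6.70 and 5.95, where the order differed. No T cell or NK cell marker among these was at 0 in any tumor, and their part in the relation was not tested.

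Within the models, r was 0.963 and 0.913 for Parp9 and 0.991 and 0.937 for Parp12 in 8 M/D and 6 AT3 tumors. For Parp14 it was 0.946 in M/D but 0.278 in AT3 tumors, and 0.993 and 0.723 with the length trend removed. Parp4, the gene with the interferon motif copies shown above, had r = 0.839 in M/D and -0.648 in AT3 tumors, with 0.397 overall (exact permutation p = 0.17, adjusted p = 1.0), and passed without untreated AT3 tumor 2 (0.626). Without the 2 farthest tumors, both of them M/D tumors, the r of Parp4 changed sign to -0.214. The difference between the models was not tested.

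Parp3 had r = 0.666 and rho = 0.604 (exact permutation p = 0.0127 and 0.0385, adjusted p = 0.749 and 0.853), and its r fell to 0.390 without the 2 farthest tumors together. Of the tumors left out singly, only NAM-treated M/D tumor 4 cost Parp3 its call (0.527), so the call rests on that tumor. Parp2 had r = 0.471 and rho = 0.648 (exact permutation p = 0.17 and 0.0491, adjusted p = 1.0 and 0.866), and since calls were made on r it was not called. It passed without NAM-treated M/D tumor 1 (0.768) and without NAM-treated M/D tumor 4 (0.617). Parp1 (0.209), Parp8 (-0.108), Parp16 (0.342) and the joint row (0.074) did not pass.

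**Figure D4:**
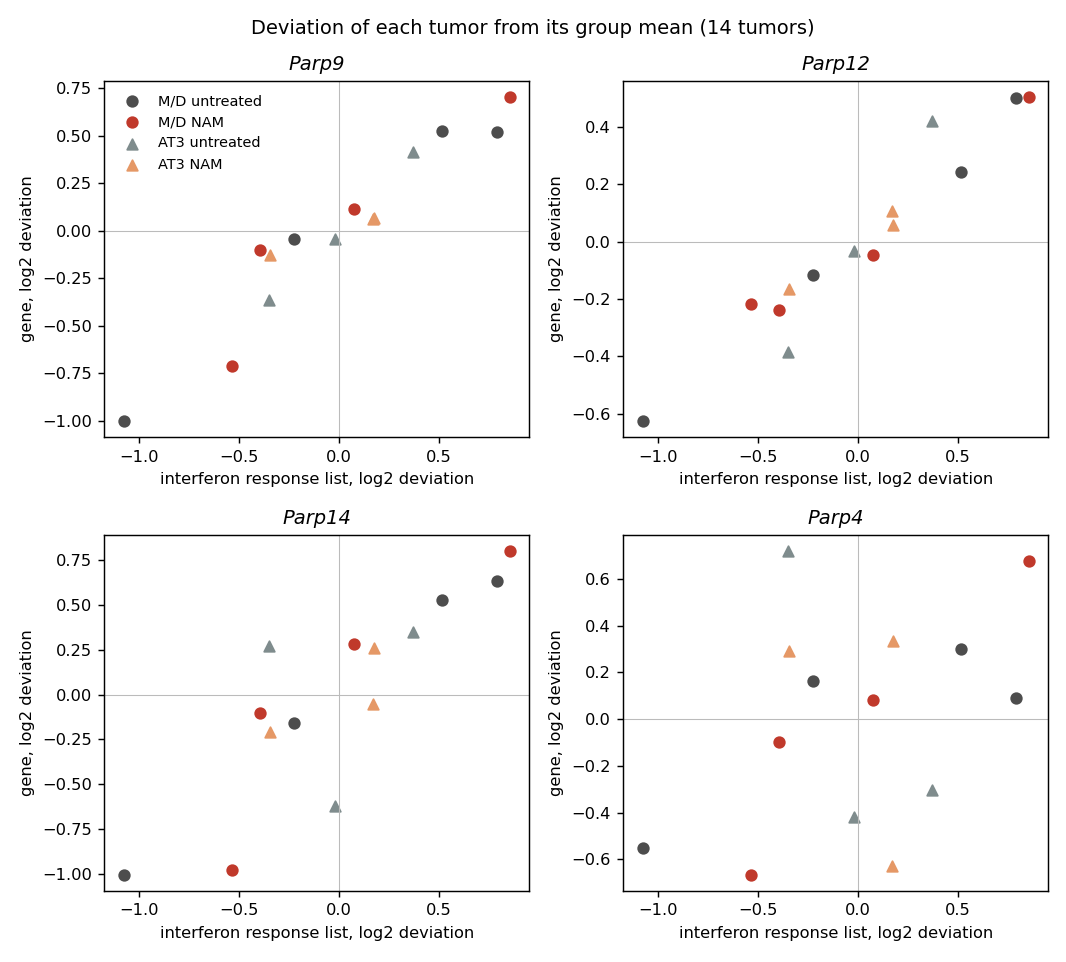
Deviation of Parp9, Parp12, Parp14 and Parp4 from the group mean against that of the mean of 29 interferon response genes, both on the log2 scale, 1 point per tumor in 4 groups. Parp9 and Parp12 run along a line in all groups, while AT3 tumors (triangles) depart from it for Parp14 and Parp4.

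**Figure D5:**
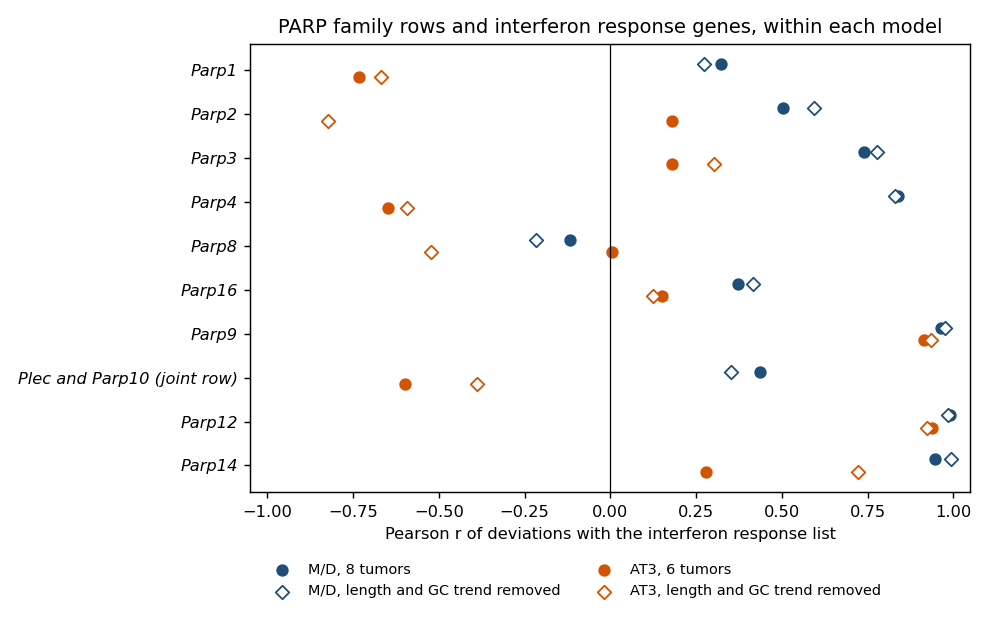
Pearson r of each member with the interferon response list within 8 M/D and 6 AT3 tumors, filled circles from the deposited values and open diamonds with the length and GC trend removed. Parp9 and Parp12 have r of 0.913 or more in both models, and Parp4 has 0.839 and -0.648.

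The genes most like a member were found by the same deviations among 18271 genes over the 14 tumors, as a description, and the genes named are those with a symbol outside the family. Those nearest to Parp9 were Cmpk2 (r = 0.972), Ifi44 (0.922), Ifit2 (0.921), Ddx60 (0.918) and Irf9 (0.911), all genes known to respond to interferon. Dtx3l followed at rank 33 (0.854), counted with the members and the genes without a symbol. Those nearest to Parp14 were Trpm2 (0.938), 4930577N17Rik (0.933), Rnf213 (0.929), Erap1 (0.917) and Dtx3l (0.903). Those nearest to Parp1 were Zcchc8, Atad5, Elmo1, Whsc1 and Arhgap19, with r of 0.972 to 0.977, and 0.906 to 0.951 without NAM-treated M/D tumor 1. Among the members themselves the closest pairs were Parp9 with Parp12 (0.926), Parp9 with Parp14 (0.880), Parp4 with the joint row (0.863) and Parp1 with Parp2 (0.781). All these genes share the libraries of the same 14 tumors.

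Other genes of the ADP-ribosylation pathway were counted from lists. Of 6 further PARP genes, 0 passed the thresholds with NAM in M/D tumors, against 6.22% of all genes. In AT3 tumors 3 were higher and Parp6 was lower, against 12.2% of genes higher and 10.9% lower. Tnks, tankyrase, which adds poly(ADP-ribose) to telomere and Wnt pathway proteins, was at 139.1, 319.8 and 162.0 untreated and at 343.8, 1430 and 1667 with NAM in AT3 tumors. Its groups did not overlap, and it was 2.27 higher on the log2 scale (SE 0.58, limma adjusted p = 0.166), or 1.54 with the length trend removed. Zc3hav1, the antiviral RNA-binding protein PARP13, was 0.78 higher and Tnks2 0.88 higher, and both fell under the fold threshold with the trend removed (0.40 and 0.36). Parp6 was lower (-0.61, and -0.60 with the trend removed). Parp11 and Tiparp passed in no comparison. Of the 29 interferon response genes, 0 passed with NAM in M/D tumors, the smallest unadjusted p being 0.18 by limma. In AT3 tumors 3 of the 29 were higher and 2 lower, against the same 12.2% and 10.9% of all genes.

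The NAM effect differed between the models for 3 of these 6 genes at an unadjusted p of 0.05, against 14.9% of all genes: Tnks (-2.52), Tnks2 (-1.04) and Parp6 (0.82), with adjusted p of 0.202 to 0.254 by limma. In untreated tumors Tnks was 2.84 higher in M/D than in AT3 tumors (adjusted p = 0.000267 by limma), Zc3hav1 0.68 and Tnks2 0.62 higher, while Parp6 was lower (-1.12). With the trend removed Tnks (1.90) and Parp6 (-0.96) still passed, and Zc3hav1 (0.24) and Tnks2 (0.020) did not.

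Lists of ADP-ribose removal, strand break repair and NAD supply had 0 of 8, 0 of 16 and 0 of 9 genes past the thresholds with NAM in M/D tumors. The removal list also holds Hpf1, which takes part in adding ADP-ribose, and the NAD list holds Nnmt, which methylates nicotinamide and so takes it out of NAD recycling. None of the genes in these lists reached an unadjusted p of 0.05 there by limma. In AT3 tumors 1 of the 8 genes of the removal list was lower, Oard1 (-0.76, and -0.18 with the trend removed). Of 16 strand break repair genes, the ligase gene Lig3 was higher (0.99, and 0.40 with the trend removed), while Aptx and Polb were lower (-0.64 and -0.80, and -1.15 and -0.72 with the trend removed). Of the 9 genes of the NAD list, Nmnat1, which makes NAD in the nucleus, was lower (-0.69, and -0.57 with the trend removed, under the fold threshold). Prkdc (-1.08) and Macrod2 (-0.90), named after their values were seen, passed only with the trend removed. These counts are to be read against the 23.1% of all genes past the thresholds in AT3 tumors.

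Between untreated models, 5 of 8 genes of the removal list, 7 of 16 of the repair list and 7 of 9 of the NAD list passed, against 56.2% of all genes. Parg, which degrades poly(ADP-ribose), was 1.10 higher in M/D tumors (limma adjusted p = 0.00144), or 0.81 once the trend was taken out, and Hpf1, the partner that directs PARP1 and PARP2 to serine, was lower (-1.28, limma adjusted p = 0.00628, and -0.66 with the trend removed). Naprt, of the nicotinic acid route to NAD, was 1.95 higher, whereas Nampt, the enzyme that recycles nicotinamide, was lower (-0.72). Cell division genes, of which 4 of 10 were lower in M/D tumors, had 0 of 10 past the thresholds with NAM there. In AT3 tumors 1 passed, Mcm2 (0.73, and 0.55 with the trend removed, under the fold threshold). With the trend removed 2 of the 10 others than Mcm2 were higher there, against 1522 of 16429 genes.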

How the data were processed

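RNA from 14 tumors was made into polyA libraries and sequenced in paired-end mode. Per the study's methods, reads were mapped with STAR 2.4.0 on mm10, counted over constitutive regions and normalized with DESeq2. The authors deposited these normalized counts, a signal that is no raw count, with the models normalized apart; dividing by the smallest step of each tumor gave whole reads for 100% of values (tolerance 0.01).

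Values were tested as log2(value + 1) with limma 3.58.1 (mean-variance trend, R 4.3.3), over genes with a mean of at least 10 in a group, with Benjamini-Hochberg adjustment over all genes tested. A fold change on this scale understates that of low genes. Calls used the study thresholds. Depth was 40936868 to 84178009 reads per tumor, and counting error was small for most members. It was larger for the joint row in AT3 tumors, with 38 and 81 reads in untreated tumors 1 and 3 and 70 in NAM-treated tumor 1. edgeR 4.0.16 and DESeq2 1.42.0 ran on recovered reads as alternatives. Trends with GENCODE transcript length and GC content were removed per tumor by splines; 83.3% to 85.2% of genes had a length. The relation to interferon response genes was called at an unadjusted exact p and adjusted over all genes, instead of over the 10 members as planned. All 10 members were named in every comparison, with Dtx3l, the 6 further PARP genes, and up to 4 genes per list and comparison by smallest p. Scripts were tested on simulated data. The members and lists were chosen with earlier results of these data known.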

Additional observations from a re-analysis of the deposited data

Results flagged for a closer look

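In the groups of 4 M/D tumors, 4 of 20 member groups held a tumor whose gap to its nearest neighbor divided by the group's range exceeded Dixon's 95% critical value for 4 samples. The ratio was taken on normalized counts, not on the log2 scale of the tests, where it can differ. For values with a normal spread, chance gives about 1 in 20 such groups, and the members share the same libraries.

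NAM-treated M/D tumor 1 had 37128 normalized counts of Parp1, 1732 of Parp2 and 419.3 of Parp16, each the highest of its group. This tumor also had the lowest epithelial and the highest B cell markers, and its Parp16 value lay inside the untreated range of 301.8 to 613.9.

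NAM-treated M/D tumor 4 had 3519 normalized counts of Parp3, against 1386 to 1792 in the other 7 M/D tumors.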

How the results depend on the processing

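The replicate block could not be taken as a pairing, since same-numbered tumors correlated at 0.11, -0.44, -0.22 and -0.19 in M/D and 0.13, 0.26 and -0.16 in AT3 tumors, and not every tumor was closest to its own number. With the block, 4 members passed in AT3 tumors: Parp1, Parp4, the joint row (1.65, limma adjusted p = 0.0401) and Parp14 (0.65). Of all 19281 genes, 2702 were then higher and 2380 lower, and 1296 had an adjusted p of 0.05 or less by limma. In the difference between the models 1 member passed with the block, the joint row, against 2959 of 22710 genes. Parp8 lost its call between untreated models with it (0.67). With the length and GC trend removed, with or without the block, 0 passed in AT3 tumors, and with all 14 tumors in 1 fit 1 passed. Over all genes, 1522 were higher and 1143 lower of 16429 with the trend removed and no block. In the fit of all 14 tumors 1745 were higher and 1553 lower of 19281. Leaving out 1 tumor at a time, the members called numbered 0 to 0 in M/D tumors and 0 to 4 in AT3 tumors. The AT3 count was 0 without untreated tumor 1 or NAM-treated tumor 2, 4 without untreated tumor 2, and 1 without untreated tumor 3 or NAM-treated tumor 3. The all-gene counts moved as well: without untreated AT3 tumor 2, 3455 genes were higher and 3310 lower of 18933. Without NAM-treated AT3 tumor 2 they were 979 and 882 of 19346. For the difference between the models 0 to 2 members passed, 2 without NAM-treated M/D tumor 4, untreated AT3 tumor 2 or NAM-treated AT3 tumor 1. In those fits 3912 of 22540, 4463 of 22454 and 4582 of 22720 genes passed. Between untreated models the count was 3 to 5, and for the relation to interferon response genes 4 to 5. A positive relation was found for 714 of 18242 genes without NAM-treated M/D tumor 1 and for 1269 without NAM-treated M/D tumor 4.

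Some members that were not called changed sign. For NAM in M/D tumors Parp9 was at -0.0086 after TMM rescaling, -0.071 by edgeR and -0.038 by DESeq2. In AT3 tumors Parp2 was at 0.18 with the trend removed, with or without the block. For the difference between the models, Parp1 was at 0.22 by edgeR, 0.31 by DESeq2 and 0.23 with the trend removed, Parp8 at -0.025 after TMM and -0.068 with the trend removed, Parp12 at -0.12 after TMM and -0.017 by edgeR, and Parp14 at 0.30 with the trend removed. Between untreated models, Parp2 was at 0.26 without rescaling, 0.10 with the replicate block and 0.27 with the trend removed, Parp16 at 0.27 without rescaling and 0.12 with the block, Parp9 at 0.025 with the block and Parp14 at -0.32 with the trend removed. The cause was not tested.

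Signs also changed on leaving out 1 tumor, the ranges being for NAM in M/D tumors -0.055 to 0.39 for Parp4, -0.33 to 0.24 for Parp9, -0.89 to 0.037 for the joint row and -0.099 to 0.28 for Parp12. For NAM in AT3 tumors they were -0.21 to 0.0052 for Parp3, -0.25 to 0.012 for Parp16 and -0.090 to 0.31 for Parp12. For the difference between the models they were -0.62 to 0.24 for Parp1, -0.087 to 0.24 for Parp8, -0.56 to 0.011 for Parp9, -0.20 to 0.20 for Parp12 and -0.64 to 0.027 for Parp14. Between untreated models they were -0.10 to 0.11 for Parp2, -0.23 to 0.13 for Parp16 and -0.52 to 0.038 for Parp9, and for the interferon relation, r was -0.291 to 0.125 for Parp8 and -0.212 to 0.214 for the joint row. Apart from leaving out tumors, the alternatives gave 375 values for single members with unchanged direction and side of the threshold, 20 with a changed sign, 7 that lost a call and 8 that gained one. With 3 or 4 tumors a group, changes smaller than the intervals given were not detectable.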
